A study of Mus musculus with 8 samples.

Results

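T cell receptor beta chains that the deposited contig tables label TRBV10 were read from 249 productive contigs in 249 cells, and these cells belonged to 159 clones of the 4344 clones with a beta chain. The members were taken by that label alone, from 6795 productive TRB contigs of 6509 cells with a TRB. The cells were CD45+ (leukocyte) cells sorted from the brain parenchyma of C57BL/6 mice. The groups were 5xFAD;Cxcr6-/- (2 libraries) and 5xFAD (2 libraries). 5xFAD is a transgenic model of Alzheimer's disease in which neurons express mutant human amyloid precursor protein and presenilin, and all 4 libraries carry it, so there is no library without the transgene. Cxcr6-/- removes CXCR6, a chemokine receptor of tissue T cells whose ligand is CXCL16. Age, sex, the number of mice per library and whether mice were pooled are not given in the sources used here, and p-values therefore measure only the spread between libraries. TRBV10 was selected on its share of clones by genotype, which was known from earlier work on these tables, so its shares by genotype below are a description, and no test of them is offered as support.

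A beta chain is assembled in the thymus by joining 1 V, 1 D and 1 J segment. Bases are trimmed from the segment ends and others are added without a template, and the resulting junction encodes the CDR3 loop that contacts peptide on MHC. T cells that descend from the same rearranged cell share these bases, and a clone here is the set of cells that share a deposited clonotype number. Each beta chain pairs with an alpha chain, built from TRAV and TRAJ segments.

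The label and the sequence did not name the same gene. All 249 contigs had 1 and the same V sequence over the 270 bases from framework 1 to framework 3, and all 270 bases were identical to the gene that GENCODE vM21 calls Trbv4 (ENSMUSG00000107486.1, a functional V gene, GRCm38 chromosome 6, positions 41059394 to 41059886, plus strand, exons 41059394 to 41059491 and 41059592 to 41059886). The next best gene, Trbv2, matched 63.3% of the bases. GENCODE's Trbv10 is a pseudogene at positions 41091940 to 41092228 of the same chromosome (ENSMUSG00000091671.1), and the contigs do not carry its sequence. No TRB contig was labelled TRBV4. Of the 22 TRBV labels in the tables, 20 matched the gene of the same name, and the other exception was TRBV12-2+TRBV13-2, which had the sequence of Trbv13-2. As background, Trbv4 is the gene behind V beta 10 in the older mouse nomenclature. The label TRBV10 is kept below as the name of the chains. The shared V sequence is shown with CDR1 and CDR2 in capitals, followed by the first bases of GENCODE's Trbv10 for comparison and by the germline 3′ end of the V gene, where the cysteine codon tgt opens the CDR3.
V region of the TRBV10 contigs: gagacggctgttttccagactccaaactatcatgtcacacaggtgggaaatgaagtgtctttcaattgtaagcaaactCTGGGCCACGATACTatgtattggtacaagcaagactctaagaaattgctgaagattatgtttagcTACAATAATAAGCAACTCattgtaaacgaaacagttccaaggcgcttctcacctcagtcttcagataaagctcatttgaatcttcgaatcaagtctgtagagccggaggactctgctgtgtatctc
Start of GENCODE Trbv10: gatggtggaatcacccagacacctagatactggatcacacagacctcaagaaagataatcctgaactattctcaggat
Germline 3′ end: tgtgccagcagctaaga

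That 3′ end holds an in-frame stop codon as codon 5 of the CDR3, and it was the only one of the 22 labels' V genes with a stop there. A productive chain must therefore have lost or changed it, and 0 of the 159 clones kept the whole codon. The junctions kept 14 germline V bases in 17 clones, 13 in 52, 12 in 67 and fewer than 12 in 23. Junctions with fewer than 12 germline bases were 3.85% and 18.4% of TRBV10 clones in the 5xFAD;Cxcr6-/- libraries, against 12.8% and 17.8% in the 5xFAD libraries. The groups overlap.

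The tables held 12792 contigs from 6686 cell barcodes, all productive and of high confidence. Barcodes per library were 765 and 1330 in 5xFAD;Cxcr6-/- and 2069 and 2522 in 5xFAD. Receptor UMIs (unique molecular identifiers, each standing for 1 captured transcript) were 13460 and 22340 in 5xFAD;Cxcr6-/- and 32169 and 34772 in 5xFAD. Barcodes found in more than 1 library numbered 28, and 0 of these carried TRBV10 and 0 had a CDR3 in common. Intervals below are 95% Clopper-Pearson intervals and cover counting error only.

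The share of clones with a TRBV10 chain was higher in 5xFAD;Cxcr6-/- than in 5xFAD, by 1.68 percentage points. It was in 26 of 555 clones (4.68%, interval 3.08 to 6.79) and 49 of 1028 clones (4.77%, 3.55 to 6.25) in 5xFAD;Cxcr6-/-. In 5xFAD it was in 39 of 1272 clones (3.07%, 2.19 to 4.17) and 45 of 1489 clones (3.02%, 2.21 to 4.02). The libraries of a genotype lay close together and the groups did not overlap, while the counting intervals of single libraries did. The means were 4.73% ± 0.0579 in 5xFAD;Cxcr6-/- and 3.04% ± 0.0310 in 5xFAD (SD, n = 2 each), a ratio of 1.55. With 2 libraries against 2, an exact permutation test cannot give a p under 0.333.

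The share of cells differed more, and it differed between the libraries of one genotype. TRBV10 was in 33 of 745 cells (4.43%, 3.07 to 6.16) and 105 of 1304 cells (8.05%, 6.63 to 9.66) in 5xFAD;Cxcr6-/-, against 44 of 2022 cells (2.18%, 1.59 to 2.91) and 67 of 2438 cells (2.75%) in 5xFAD. The difference of the means was 3.78 percentage points. Without the 2 largest TRBV10 clones of 5xFAD;Cxcr6-/- library 2, an alternative chosen after seeing the data, the shares were 4.43% and 4.31% in 5xFAD;Cxcr6-/- and 2.18% and 2.75% in 5xFAD, a difference of 1.91 points. The size of the difference in cells therefore rested in part on 2 clones of 1 library.

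**Figure D1:**
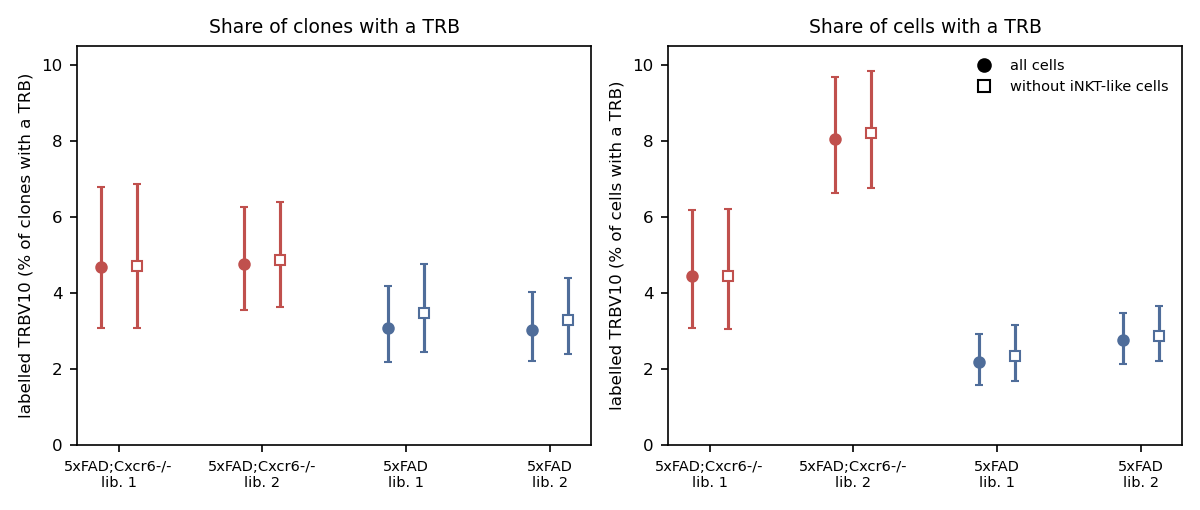
Share of clones (left) and of cells (right) with a TRB that carry a chain labelled TRBV10, in percent, by library. Bars are 95% Clopper-Pearson intervals, filled circles all cells and open squares the cells without an iNKT-like chain. Clone shares of 4.68% and 4.77% in 5xFAD;Cxcr6-/- stand above 3.07% and 3.02% in 5xFAD, and the cell share of 5xFAD;Cxcr6-/- library 2 stands highest at 8.05%.

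Invariant natural killer T (iNKT) cells use a fixed alpha chain, TRAV11 joined to TRAJ18, with a small set of beta chains, and they recognise lipids on CD1d. Cells with that join (or TRAV11D joined to TRAJ18) are called iNKT-like here. They were 3.22% and 1.69% of cells with a TRB in 5xFAD;Cxcr6-/-, against 11.4% and 7.05% in 5xFAD, so they weigh on the denominators unequally. With them left out, TRBV10 was in 4.71% and 4.87% of clones in 5xFAD;Cxcr6-/- and in 3.47% and 3.29% in 5xFAD, and the difference was 1.41 points in place of 1.68. Cell shares without them were 4.44% and 8.19% in 5xFAD;Cxcr6-/- and 2.35% and 2.87% in 5xFAD.

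Across all TRBV labels, 6 of 22 (27.3%) were higher in both 5xFAD;Cxcr6-/- libraries than in both 5xFAD libraries, TRBV10 among them. TRBV10 ranked 11 of 22 by mean share of clones in 5xFAD;Cxcr6-/- and 14 of 22 in 5xFAD. In an edgeR quasi-likelihood fit over all 152 V and J segments of both loci, 2 segments (1.32%) passed an adjusted p of 0.05 and 11 (7.24%) had an unadjusted p under 0.05. Both were lower in 5xFAD;Cxcr6-/-, and they are the pair that makes the iNKT-like chain. TRAV11 stood at -2.14 on the log2 scale (SE 0.26, adjusted p = 2.48e-06 by edgeR), and TRAJ18 at -1.63 (SE 0.23, adjusted p = 1.55e-05 by edgeR). TRBV10 had a log2 fold change of 0.64 (SE 0.23, edgeR adjusted p = 0.374) and did not pass, and the median over all segments was 0.13. Its log2 fold change lay between 0.48 and 1.35 over 14 alternatives, with adjusted p from 0.102 to 0.999. The 3 labels whose shares over the 4 libraries were most like those of TRBV10, by the distance between log2 shares centred on their mean, were TRBV26 (distance 0.260), TRBV20 (0.456) and TRBV14 (0.461). TRBV26 was in 3.24% and 4.09% of clones in 5xFAD;Cxcr6-/- and in 2.52% and 2.62% in 5xFAD.

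**Figure D2:**
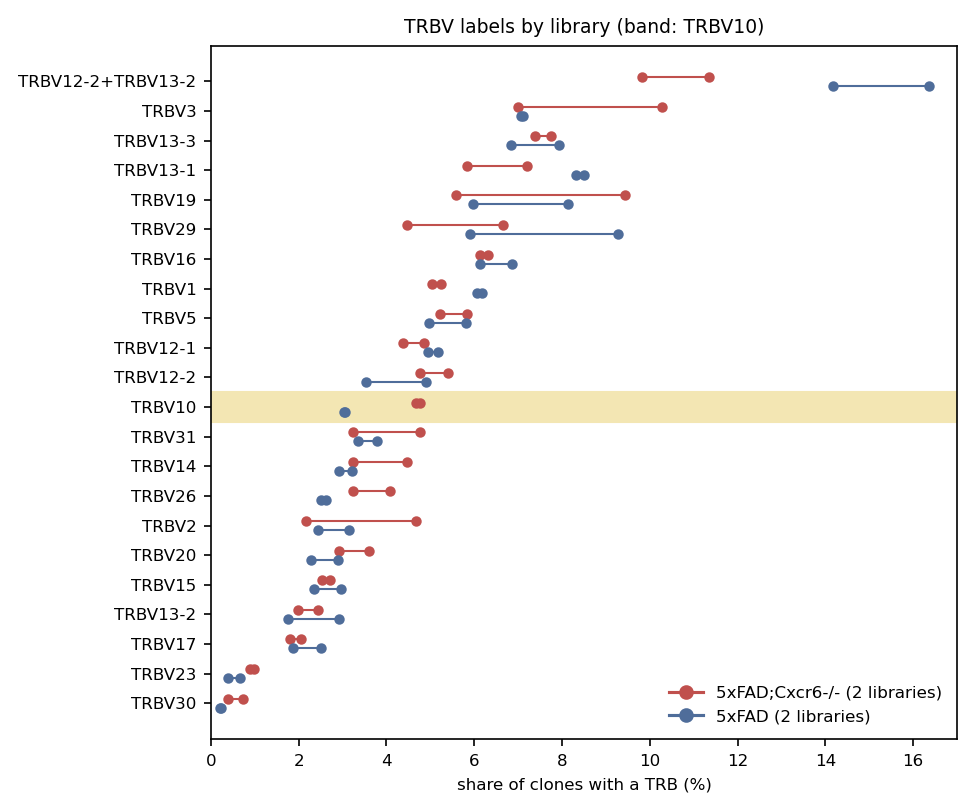
Share of clones with a TRB, in percent, for each of the 22 TRBV labels. Each line joins the 2 libraries of a genotype, with 5xFAD;Cxcr6-/- above 5xFAD. TRBV10 (band) is among the 6 labels with both 5xFAD;Cxcr6-/- libraries above both 5xFAD libraries.

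Most TRBV10 clones were single cells. Of the 159 clones, 136 held 1 cell, 23 held 2 or more (expanded) and 10 held 3 or more. Expanded clones were 3 of 26 (11.5%, 2.45 to 30.2) and 8 of 49 (16.3%, 7.32 to 29.7) in 5xFAD;Cxcr6-/-, against 3 of 39 (7.69%, 1.62 to 20.9) and 9 of 45 (20%, 9.58 to 34.6) in 5xFAD. The groups overlapped and the means differed by 0.0863 percentage points (two-sided exact permutation p = 1, n = 2 each). With a clone defined by its TRB alone the difference was 5.60 points. With the deposited clonotypes the difference ranged from -6.07 to 6.24 points when 1 library was left out. Other TRB clones were expanded in 12.1% and 9.91% of cases in 5xFAD;Cxcr6-/- and in 11.4% and 16.6% in 5xFAD. TRBV10 clones were expanded more often than the other clones in 2 libraries and less often in 2, by 1.37 points on average (two-sided exact sign-flip permutation p = 0.75 over 4 libraries, adjusted p over the 11 features = 0.917). With each library thinned to 745 cells, 11.5% and 14.2% of TRBV10 clones were expanded in 5xFAD;Cxcr6-/- and 4.91% and 14.6% in 5xFAD.

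**Figure D3:**
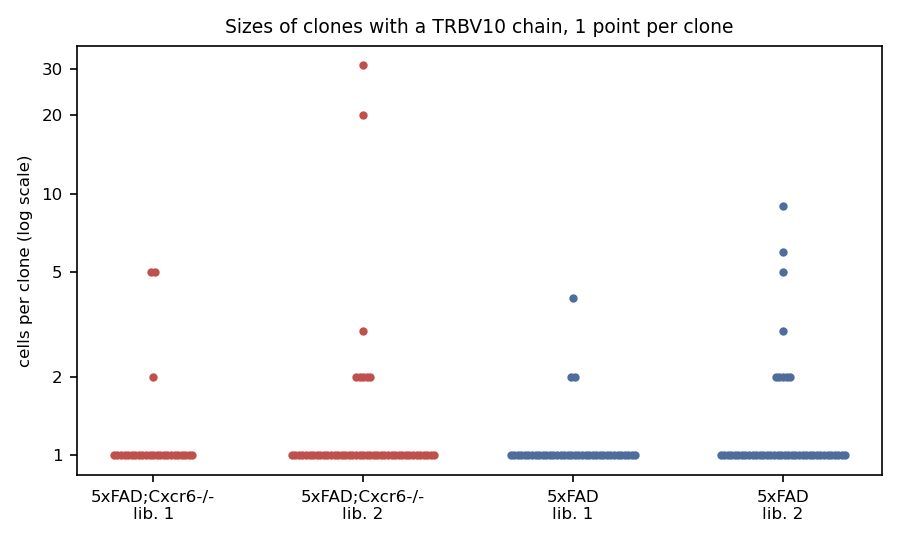
Cells per clone on a log scale for the 159 clones with a TRBV10 chain, by library, 1 point per clone. The clones of 31 and 20 cells in 5xFAD;Cxcr6-/- library 2 stand above every other TRBV10 clone, of which the largest held 9 cells.

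The largest clones used several J segments and alpha chains. In 5xFAD;Cxcr6-/- library 2 a clone of 31 cells (2.38% of cells with a TRB, 1.62 to 3.36) was the largest of all clones in that library, and a clone of 20 cells (1.53%, 0.939 to 2.36) ranked 3. Both joined TRBV10 to TRBJ2-7 with a CDR3 of 13 residues, and both were read with an alpha chain ending in TRAJ52, TRAV10 in 26 cells of the first and TRAV13N-4 in 12 cells of the second. The third clone of that library held 3 cells, with TRBJ2-4 and TRAV16N joined to TRAJ45. The leading TRBV10 clones of 5xFAD;Cxcr6-/- library 1 held 5, 5 and 2 cells, with TRBJ2-1, TRBJ1-1 and TRBJ2-4. Sizes count all cells of a clonotype, and the TRBV10 contig was read in 4 cells of each of these 5-cell clones. In 5xFAD library 1 they held 4, 2 and 2 cells, all with TRBJ2-7. In 5xFAD library 2 they held 9, 6 and 5 cells, with TRBJ1-1, TRBJ2-1 and TRBJ2-5. The TRBV10 contig was read in 5 cells of the 6-cell clone, and the 5-cell clone had no alpha chain in any cell. The 9-cell clone carried TRAV7-6 joined to TRAJ49 in all 9 cells. Its TRB bases were in 2 more clonotype numbers of that library, of 2 cells and 1 cell. In the clonotype of 2 cells, 1 cell carried TRBV10 and both carried TRBV1. Clonotype numbers with the same TRB bases were also present in both 5xFAD;Cxcr6-/- libraries. In library 2 the 3-cell clone shared its TRB bases, TRAV16N and TRAJ45 with a clonotype of 1 cell. In library 1 they were clonotypes of 1 cell, among them a pair with TRAV6-6 and TRAJ24. The CDR3 bases of the largest clone of each library, with both clones tied at 5 cells and the 20-cell clone added, are given to show how the trimmed V end, the added bases and J meet, with capitals for bases that match neither the V end nor J (D-derived and added bases together).
5xFAD;Cxcr6-/- library 1, 5 cells, TRBJ2-1: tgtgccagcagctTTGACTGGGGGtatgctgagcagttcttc
5xFAD;Cxcr6-/- library 1, 5 cells, TRBJ1-1: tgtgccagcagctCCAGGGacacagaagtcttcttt
5xFAD;Cxcr6-/- library 2, 31 cells, TRBJ2-7: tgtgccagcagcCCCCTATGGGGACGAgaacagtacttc
5xFAD;Cxcr6-/- library 2, 20 cells, TRBJ2-7: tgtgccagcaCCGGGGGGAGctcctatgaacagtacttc
5xFAD library 1, 4 cells, TRBJ2-7: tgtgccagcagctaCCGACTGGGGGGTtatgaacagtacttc
5xFAD library 2, 9 cells, TRBJ1-1: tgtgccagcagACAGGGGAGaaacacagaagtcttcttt

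TRBV10 chains were almost all private to a library. The 159 clones held 154 distinct chains by V, J and CDR3 bases, and 0 of these chains were found in 2 or more libraries. The same count was not made for other TRB chains, so this is not shown to be particular to TRBV10. One CDR3 amino acid sequence of 14 residues was in 2 libraries, with TRBJ2-7 and 1 cell in each. Its bases were not identical in the 2 cells, and its alpha chains differed apart from TRAJ26, which was present in both cells.
5xFAD;Cxcr6-/- library 1: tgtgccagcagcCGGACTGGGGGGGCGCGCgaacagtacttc
5xFAD library 1: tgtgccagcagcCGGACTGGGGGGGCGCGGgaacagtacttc

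TRBV10 was joined to 12 TRBJ segments. TRBJ2-7 was used by 36 of the 159 clones, TRBJ2-1 by 28, TRBJ2-5 by 20, TRBJ2-4 by 16, TRBJ1-1 by 15, TRBJ2-3 by 12 and TRBJ1-2 by 10, and each of the other 5 by 5 clones or fewer. TRBJ2-7 was in 19.2% and 12.2% of TRBV10 clones in 5xFAD;Cxcr6-/- and in 35.9% and 24.4% in 5xFAD. In other clones it was in 21.0% and 19.5% in 5xFAD;Cxcr6-/- and in 21.0% and 21.2% in 5xFAD. TRBJ1-2 went the other way among TRBV10 clones, with 7.69% and 10.2% in 5xFAD;Cxcr6-/- and 2.56% and 4.44% in 5xFAD. It rested on 2 and 5 clones in 5xFAD;Cxcr6-/- and on 1 and 2 in 5xFAD. TRBJ2-7 and TRBJ1-2 were the only ones of the 12 TRBJ segments whose shares of TRBV10 clones did not overlap between genotypes. TRBJ2 segments together were in 76.9% and 61.2% of TRBV10 clones in 5xFAD;Cxcr6-/- and in 89.7% and 71.1% in 5xFAD, so the TRBV10 share was above that of other clones (59.4% and 66.1%, 63.3% and 64.7%, in the same order) in 3 of 4 libraries. An edgeR fit of TRBV10 clones against other clones, with the library as a block, tested 130 TRBJ, TRAV and TRAJ segments. It called 0 (0.0%), and 3 (2.31%) had an unadjusted p under 0.05. DESeq2 also called 0. TMM scaling called 7, all lower in TRBV10 clones, while moving the median log2 fold change of all segments to -0.74, against 0.15 without that scaling. The 7 were TRAV11, TRAJ18, TRBJ1-1, TRBJ1-3, TRBJ1-4, TRBJ1-5 and TRBJ2-2, with TRBJ1-5 at -2.50 and TRBJ1-1 at -1.26 on that scale, and they are read relative to this shift. The difference between genotypes in these partners was tested as an interaction, and 0 of 130 segments passed. On the log2 scale TRBJ2-7 stood at -0.95 (SE 0.72) and TRBJ1-2 at 1.51 (SE 1.12). With so few clones per segment the errors are wide, so the test could miss large differences and does not show that partners were alike.

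**Figure D4:**
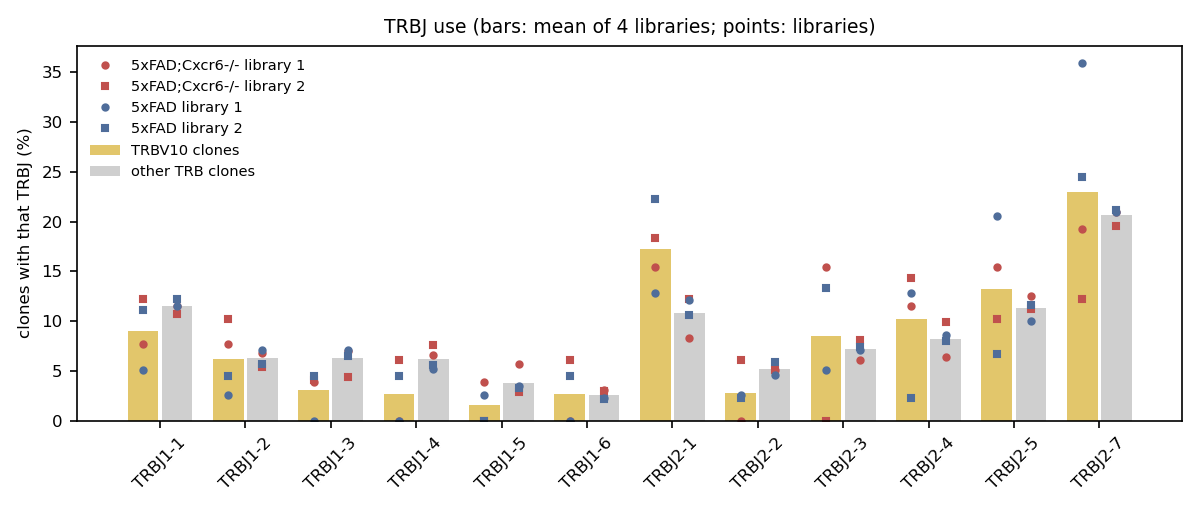
Share of clones, in percent, that use each of the 12 TRBJ segments. Bars are means over the 4 libraries for TRBV10 clones and other TRB clones, and points are single libraries. TRBV10 clones used TRBJ2-7 most often, and the points of the 4 libraries spread widely around the bars.

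TRBV10 clones were read with many alpha partners. Of the 159 clones, 137 had an alpha chain, built from 61 TRAV and 38 TRAJ segments in 148 different joins, of which 13 were in 2 or more clones. The 3464 other clones with an alpha chain used 88 TRAV and 43 TRAJ segments. Their joins were not counted, so the diversity is not shown to be particular to TRBV10. The join found most often was TRAV11 with TRAJ18, in 5 clones. The TRAV segments in most TRBV10 clones were TRAV12D-3 and TRAV16N (8 each) and TRAV6-6 (7), and the TRAJ segments were TRAJ22 and TRAJ37 (10 each) and TRAJ18, TRAJ26 and TRAJ9 (9 each). TRAJ37 was in 7.30% of TRBV10 clones with an alpha chain and 3.06% of other clones (log2 difference 1.20, SE 0.56), and TRAJ9 in 6.57% of TRBV10 clones and 2.42% of other clones (1.45, SE 0.62). Of the 9 TRBV10 clones with TRAJ9, 6 were in 5xFAD library 2, and without that library its log2 difference was 0.32. That of TRAJ37 was 0.73 without 5xFAD library 1. TRAV11 was in 3.65% of TRBV10 clones and 12.3% of other clones (-1.51, SE 0.61). None of these passed the edgeR test, each with an adjusted p of 0.838.

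Of the cells with a TRBV10 chain, 5 carried the iNKT-like alpha chain. They were 1 of 33 and 0 of 105 TRBV10 cells in 5xFAD;Cxcr6-/- (the limit that a count of 0 allows, taken as 3 counts of 105 and not as an interval bound, is 2.86%), against 2 of 44 and 2 of 67 in 5xFAD. Both such cells of 5xFAD library 1 also held a second TRB, labelled TRBV29 in one and TRBV12-2+TRBV13-2 in the other, and both such cells of 5xFAD library 2 held TRBV10 alone. The iNKT-like alpha chain rested on 2 UMIs in the 5xFAD;Cxcr6-/- cell. In 5xFAD it rested on 3 and 7 UMIs in library 1 and on 2 and 3 in library 2. The cell with 7 UMIs also held TRAV6N-7 joined to TRAJ9. The 5xFAD library 2 cell with 2 UMIs also held TRAV9-2 joined to TRAJ26. One TRBV10 cell, in 5xFAD library 2, carried TRAV1 joined to TRAJ33, the alpha chain of mucosal-associated invariant T cells, and it rested on 1 UMI for that alpha chain and 2 for the beta chain.

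The 11 features measured on TRBV10 clones and on other TRB clones of the same library gave no adjusted p under 0.55 (two-sided exact sign-flip permutation test over 4 libraries, Benjamini-Hochberg over the 11 features, smallest possible unadjusted p 0.125). Mean CDR3 length and mean UMIs per contig were lower in TRBV10 chains in all 4 libraries. The mean CDR3 length was 13.7 and 13.4 residues in TRBV10 clones of 5xFAD;Cxcr6-/- and 13.9 and 13.8 in 5xFAD, 0.18 residues shorter on average than in the other clones of the same library. The differences were -0.093 and -0.48 residues in 5xFAD;Cxcr6-/- and -0.13 and -0.041 in 5xFAD, and the mean was -0.088 without 5xFAD;Cxcr6-/- library 2. Mean UMIs per TRBV10 contig were 9.94 and 11.2 in 5xFAD;Cxcr6-/- and 9.05 and 9.39 in 5xFAD. That was 1.59 fewer on average than per TRB contig of cells without a TRBV10 chain. The bases added between V and J, D included, averaged 11.1 and 9.63 in 5xFAD;Cxcr6-/- and 11.5 and 11.0 in 5xFAD, and were above the other clones in 3 libraries, by 0.92 bases on average. Between genotypes no feature of TRBV10 clones could reach a p under 0.333 in the exact permutation test of 2 libraries against 2.

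Cells that held 2 alpha chains were 12.1% and 6.67% of TRBV10 cells in 5xFAD;Cxcr6-/- and 15.9% and 31.3% in 5xFAD. Other cells with a TRB held 2 in 9.41% and 7.59% of cases in 5xFAD;Cxcr6-/- and in 6.98% and 7.34% in 5xFAD. The highest share, in 5xFAD library 2, came from 21 cells of 11 clones, 7 of them in 1 clone. Counted per clone, a cell with 2 alpha chains was present in 11.5% and 14.3% of TRBV10 clones in 5xFAD;Cxcr6-/- and in 17.9% and 24.4% in 5xFAD, against 9.83% and 8.48%, and 9.98% and 9.20%, of other clones. The mean difference in cells was 8.68 percentage points, in the same direction in 3 of 4 libraries (two-sided exact sign-flip permutation p = 0.25, adjusted p = 0.55), and it was 3.57 points without 5xFAD library 2. Whether the second alpha chains came from 2 cells in 1 droplet was not tested.

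The mean net charge of the CDR3 was -0.923 and -0.449 in TRBV10 clones of 5xFAD;Cxcr6-/- and -0.667 and -0.578 in 5xFAD. It was above that of other clones in 3 libraries and below it in 5xFAD;Cxcr6-/- library 1 (mean difference 0.137, two-sided exact sign-flip permutation p = 0.25). The difference was 0.0736 without 5xFAD;Cxcr6-/- library 2 and 0.243 without library 1 of that genotype. The longest stretch of at least 5 bases shared with a D segment came from TRBD2 in 12 of 26 and 16 of 49 TRBV10 clones of 5xFAD;Cxcr6-/-, and in 21 of 39 and 17 of 45 of 5xFAD. It came from TRBD1 in 9 and 15 clones of 5xFAD;Cxcr6-/- and in 13 and 19 of 5xFAD, and the rest had a tie or no such stretch. In clones with another TRBV label TRBD2 gave it in 140 of 529 and 275 of 979 clones of 5xFAD;Cxcr6-/- and in 392 of 1233 and 428 of 1444 of 5xFAD, and TRBD1 led in every library (221 and 389, 464 and 538). The share of clones with TRBD2 was thus higher among TRBV10 clones in all 4 libraries, which was outside the 11 features, was noticed after the values were seen and was not tested. No such stretch was found in 4 and 16 TRBV10 clones of 5xFAD;Cxcr6-/- and in 4 and 9 of 5xFAD. Among other clones it was lacking in 142 and 252 of 5xFAD;Cxcr6-/- and in 318 and 382 of 5xFAD. How far this weighs on the TRBD2 share was not tested. TRBD2 lies between the TRBJ1 and TRBJ2 clusters and ordinarily joins TRBJ2, and the part of TRBJ2 use in this count was not tested. The deposited D calls ran the other way, with TRBD1 in 34 and TRBD2 in 16 of the 50 TRBV10 contigs that had one. A second TRB was read in 3 of 33 and 3 of 105 TRBV10 cells of 5xFAD;Cxcr6-/- (9.09% and 2.86%), and in 7 of 44 and 4 of 67 of 5xFAD (15.9% and 5.97%). Other cells with a TRB held 2 in 8.15% and 4.34% of cases in 5xFAD;Cxcr6-/- and in 3.79% and 3.54% in 5xFAD. Members were taken by any TRBV10 contig, so a cell with 2 TRB had 2 chances to be taken. How far this weighs on these shares was not tested. The commonest labels of the second TRB were TRBV13-1 and TRBV16, in 3 cells each. The UMIs behind a TRBV10 contig ran from 2 to 25 (median 9) and from 1 to 113 (median 10) in 5xFAD;Cxcr6-/-, and from 2 to 21 (median 8) and from 2 to 33 (median 8) in 5xFAD. Other TRB contigs had medians of 10 and 10 in 5xFAD;Cxcr6-/- and of 10 and 9 in 5xFAD. The medians were thus equal in 5xFAD;Cxcr6-/- library 2.

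**Figure D5:**
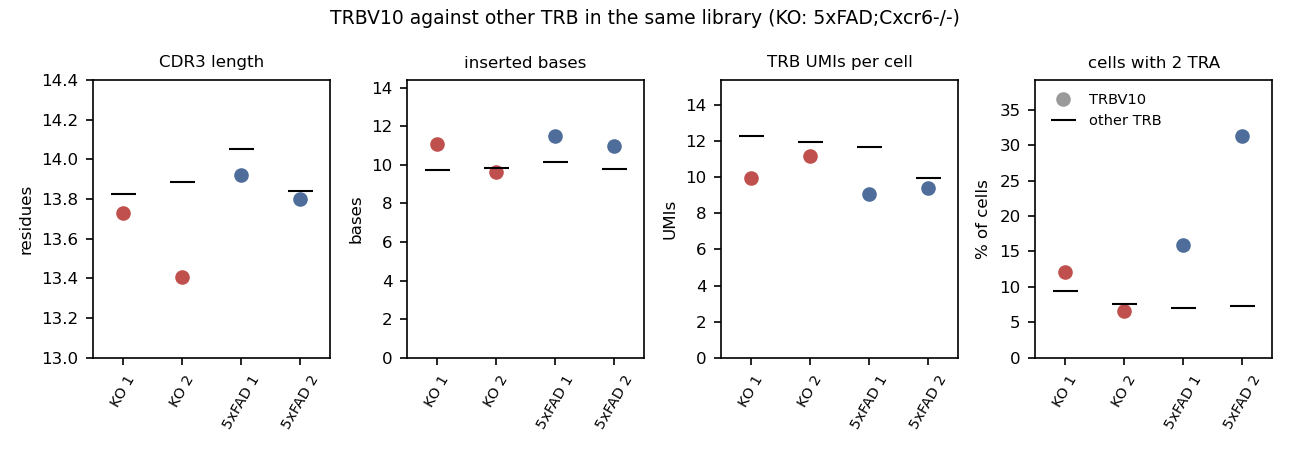
Means of 4 features in TRBV10 clones or cells (circles) and in other TRB clones or cells of the same library (dashes): CDR3 length in residues, inserted bases, UMIs per TRB contig (panel title: per cell) and cells with 2 alpha chains in percent. The length axis starts at 13. Length and UMIs are lower in TRBV10 chains in all 4 libraries, and 5xFAD library 2 stands out at 31.3% of cells with 2 alpha chains.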

How the data were processed

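Receptor libraries were made with a 10x Genomics immune profiling kit per the labels' protocols and processed with Cell Ranger 6.0 against mm10 per the submitters' processing notes. The authors deposited contig tables with read and UMI counts per contig; the sorted cells' expression libraries were not used here. Clones are the deposited clonotype numbers. Genotype and partner fits counted clones per segment with at least 10 clones in edgeR 4.0.16 (R 4.3.3), with the log of clones per locus and library as offset; DESeq2 1.42.0 was an alternative. Expanded means 2 or more cells. Thinning used 1000 seeded draws. V sequences were matched to GENCODE vM21. The members, segments and tests were chosen with earlier results of these data known. Named items were TRBV10, segments passing a fit, all TRBJ segments, the 3 commonest TRAV and TRAJ (ties kept), the 3 nearest TRBV labels, the 3 largest clones per library, and shared or invariant chains. The edgeR fits were tested on simulated clone counts. Proteins were not printed.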

Additional observations from a re-analysis of the deposited data

How the results depend on the processing

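The TRBV10 share of clones stayed higher in 5xFAD;Cxcr6-/- under every alternative (difference 1.41 to 2.15 points, and 1.64 to 1.72 leaving out 1 library). The share of cells did so under all 9 of its alternatives (1.91 to 5.59, and 1.97 to 5.59 leaving out 1 library). TRBV10 was selected on its share of clones in these same libraries, so the ranges describe the selected value and give it no support. With the replicate number as a block, the difference in clones was 1.68 points. In this design it must equal the main value, so it is no separate alternative. In the block fit TRBV10 had a log2 fold change of 0.64 (edgeR adjusted p = 0.453), and 2 segments were called. The labels do not say whether same-numbered libraries were processed together. Their deviations correlated at 0.00353 over 110 segments. This is 1 correlation over clone counts with counting error, so it cannot show whether a batch was shared. The 2 segments called by genotype became 0 without iNKT-like cells, which leave by construction, 0 with cells counted in place of clones, 0 with DESeq2 and its mean dispersion, and 0 to 2 when leaving out 1 library (0 without either 5xFAD;Cxcr6-/- library). TMM called 3 and at least 3 UMIs called 3, the added segment being TRBV12-2+TRBV13-2, lower in 5xFAD;Cxcr6-/- (edgeR adjusted p = 0.0266 and 0.0461). DESeq2 with its default dispersion trend called 2; this trend was added after the mean dispersion had given 0, and both are kept. The partner fit called 7 with TMM and 0 otherwise. Among partners, TMM turned TRAV16N to -0.15, TRAV6-6 to -0.68, TRAJ22 to -0.73 and TRAJ26 to -0.12; DESeq2 turned TRAV6-6 to -0.014 and TRAJ22 to -0.24 (default trend, -0.021 and -0.15); counting cells turned TRAJ22 to -0.79; and TRAJ18 turned to 0.20 without iNKT-like cells. Leaving out 1 library, TRAV12D-3 ranged from -0.51 to 1.77, TRAJ22 from -0.39 to 0.49, TRAJ9 from 0.32 to 1.8 and TRAJ37 from 0.73 to 1.48. The difference in expanded TRBV10 clones ranged from -6.07 to 6.24 points when leaving out 1 library, was 5.60 with clones by TRB alone and was -0.326 with cells of 1 TRB and 1 or 2 TRA only. Between genotypes, net charge reversed to 0.0238 with at least 3 UMIs and 0.00266 with clones by TRB alone (leaving out 1 library, -0.301 to 0.173), bases lost from J to -0.0462 with cells of 1 TRB and 1 or 2 TRA, and cells with 2 TRB ranged from -9.94 to 0.00388 when leaving out 1 library. Against other clones, leaving out 1 library gave hydrophobicity of -0.0302 to 0.0200, bases lost from J of -0.0247 to 0.0435, cells with a TRA of -1.14 to 3.49, expanded share of -0.308 to 3.08 and clone size of -0.204 to 0.261, CDR3 length of -0.233 to -0.0879 and cells with 2 TRA of 3.57 to 11.9; hydrophobicity was 0.0212 with clones by TRB alone and bases lost from J -0.0172 with at least 3 UMIs. The cause was not tested. The 26 to 49 TRBV10 clones per library limit every share among them.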
